A study of Rattus norvegicus with 35 samples.

Results

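Bisphenol A at 25 µg/kg/day together with dietary indole-3-carbinol (BPA25+I3C) was compared with the negative control in the mammary gland of weanling rats. The comparison used the 5 arrays labelled BPA25+indole and the 5 arrays labelled negative control, which were chosen by their titles and are 10 of the 35 arrays of the series. All 41012 non-control probes entered. Pregnant Sprague-Dawley rats had been dosed by gavage with BPA from gestational day 10 to 21, and the I3C group ate chow with 2000 mg/kg I3C, about 45.0 mg/kg/day. The abdominal left mammary gland of female offspring was taken at postnatal day 21, and 150 ng of total RNA per gland was hybridised to a one-colour Agilent whole rat genome array. The labels name no genetic alteration and do not state what the control dams received in place of BPA or which chow they ate. The offspring came from different litters, but no litter is given for an array, and no group received I3C without BPA. A difference from control therefore belongs to BPA and I3C together. The p-values and standard errors use a spread between arrays pooled over all 7 groups, not the spread of these 10 arrays alone.

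BPA, a monomer of polycarbonate plastic, is a weak ligand of the oestrogen receptors, and I3C is a compound of cruciferous vegetables whose condensation products in the stomach are ligands of the aryl hydrocarbon receptor, Ahr. The gland of a weanling rat is a small tree of ducts in a large fat pad. Its ducts have an inner luminal layer, marked by Krt8, Krt18 and Epcam and able to make milk proteins, and an outer basal layer marked by Krt5 and Krt14. Skeletal muscle of the body wall and skin lies next to the fat pad. The question put by the design is what both agents given together before birth left in the gland at weaning.

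Levels are log2 signals relative to the 75th percentile of each array, so that 0 is the signal of a moderately bright probe. Differences are log2 values of BPA25+I3C minus control with their standard errors from limma, and n is 5 arrays a group unless stated. Of 16151 genes tested, 15097 were above background on at least 4 arrays of control or BPA25+I3C, and 1054 entered through another group only. The adipocyte hormone Adipoq was bright in both groups, at 7.94 to 8.88 in BPA25+I3C and at 6.39 to 8.60 in control. The luminal markers Krt8, Krt18 and Epcam were above background on 2, 4 and 3 BPA25+I3C arrays, and on 5 control arrays each. The basal markers Krt5 and Krt14 were above background on 5 and 4 BPA25+I3C arrays, and on 5 control arrays each. Control replicate 2 and BPA25+I3C replicate 2, on slides 3 and 4, had 93.4% and 68.6% of probes above background, against 41.1% to 48.1% on the other 8 arrays. The 75th percentile signal ran from 73.3 to 375 over the 10 arrays. The arrays lay on 8 slides, of which 2 held both groups, and 4 scan days held both groups.

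Among the members of the gene lists described below, many of the largest differences lay in transcripts of skeletal muscle and of epithelium and milk. Sequences of some of these genes are given first. The caseins sit together on chromosome 14, and their promoters are shown because kappa-casein (Csn3) and alpha-S1-casein (Csn1s1) were lower in BPA25+I3C while beta-casein (Csn2) was not. The 250 bases before each gene start are from RefSeq, assembly GRCr8, printed 5′ to 3′ on the gene's strand. Capitals mark the motif TTCNNNGAA, the core bound by Stat5, the transcription factor of prolactin signalling, searched on both strands.

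Csn3, chr14:20439831-20440080, minus strand: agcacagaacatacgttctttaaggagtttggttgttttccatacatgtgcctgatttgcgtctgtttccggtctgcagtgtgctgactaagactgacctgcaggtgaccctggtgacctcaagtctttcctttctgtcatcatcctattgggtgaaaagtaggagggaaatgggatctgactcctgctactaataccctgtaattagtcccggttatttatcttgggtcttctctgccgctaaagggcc

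Csn1s1, chr14:20638850-20639099, minus strand: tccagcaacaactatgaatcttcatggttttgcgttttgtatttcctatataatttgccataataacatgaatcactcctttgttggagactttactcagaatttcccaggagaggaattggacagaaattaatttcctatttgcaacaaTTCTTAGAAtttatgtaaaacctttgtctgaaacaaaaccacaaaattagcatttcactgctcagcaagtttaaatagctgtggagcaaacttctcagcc

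Csn2, chr14:20601574-20601823, plus strand: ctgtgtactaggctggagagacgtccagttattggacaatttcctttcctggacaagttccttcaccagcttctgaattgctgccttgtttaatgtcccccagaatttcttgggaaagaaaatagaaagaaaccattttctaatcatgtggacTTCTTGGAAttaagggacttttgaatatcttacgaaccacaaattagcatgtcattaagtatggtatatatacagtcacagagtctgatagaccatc

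The motif begins at position -100 from the start of Csn1s1 and at -97 from that of Csn2, and these letters are not in the window of Csn3 or of the alpha-lactalbumin gene Lalba. It was found in 4 of 8 promoters of the milk list and in 7.7% of all 33469 promoters in the table. A match describes letters and not a bound site.

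The promoter of Myoz2, a calcineurin-binding protein of slow muscle fibres, is shown with CAGCTG in capitals, an E box of the kind bound by the myogenic factors.

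Myoz2, chr2:213852779-213853028, minus strand: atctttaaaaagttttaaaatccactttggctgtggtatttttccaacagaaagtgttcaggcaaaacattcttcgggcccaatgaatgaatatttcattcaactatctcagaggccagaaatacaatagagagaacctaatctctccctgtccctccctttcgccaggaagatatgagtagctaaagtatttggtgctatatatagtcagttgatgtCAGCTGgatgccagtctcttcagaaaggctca

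This E box begins at position -32. CAGCTG is its own reverse complement and was found in 3 of 9 slow-twitch promoters, in 5 of 13 fast-twitch promoters and in 12.0% of all promoters. It was also in 4 of 7 luminal promoters and 1 of 8 milk promoters, and was not in the windows of Tnni1 or Mb. The array probes behind the results below are 60 bases long, and those of the 2 slow-muscle genes that passed a test, of the 2 caseins with the motif and of 2 regulators are printed in lower case as the files give them, with the rn3 coordinates of the file headers.

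Tnni1 probe, chr13:48854116-48854175: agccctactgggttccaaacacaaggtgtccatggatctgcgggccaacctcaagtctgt

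Myoz2 probe, chr2:219672946-219673005: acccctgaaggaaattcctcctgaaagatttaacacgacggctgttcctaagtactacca

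Csn1s1 probe, chr14:21869236-21869295: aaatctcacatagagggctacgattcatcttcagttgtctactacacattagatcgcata

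Csn2 probe, chr14:21853182-21853241: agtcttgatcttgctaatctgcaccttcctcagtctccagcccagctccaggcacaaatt

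Cited2 probe, chr1:12722942-12723001: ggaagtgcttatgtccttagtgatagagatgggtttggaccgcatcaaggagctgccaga

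Zbtb16 probe, chr8:51953559-51953618: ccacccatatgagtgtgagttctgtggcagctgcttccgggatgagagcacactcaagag

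No gene passed in BPA25+I3C against control. limma called 0 of 16151 genes (0% called) at a Benjamini-Hochberg adjusted p under 0.05, and the smallest adjusted p was 0.345. At an unadjusted p under 0.05, 57 genes were higher (0.353% called) and 196 were lower (1.21% called), where 5% of the genes tested is 808. The median difference of all genes was 0.14, with 70.6% of genes above 0 and 29.4% below. On the low side, 229 genes (1.42%) had a difference of -1 or lower, against 33 (0.204%) of 1 or higher. All 5 BPA25+I3C arrays lay below all 5 control arrays for 28 genes (0.173%) and above them for 9 genes (0.0557%). Genes described one by one below were largely chosen by small p in these same arrays, so a lack of overlap adds no separate support. Of the 30 gene lists, which hold 447 genes, 335 genes were measured and 0 passed. The 196 lower genes held 22 members of the 3 muscle lists and 11 of the luminal and milk lists, and the 57 higher genes held 1 member of any list. Leaving out BPA25+I3C replicate 4 gave 25 passing genes, all lower, 4 of them in the muscle lists, and leaving out the 4 arrays of slide 3 from the fit gave 2. Control replicate 2 is the control array of that slide, and leaving it out alone gave 0.

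**Figure D1:**
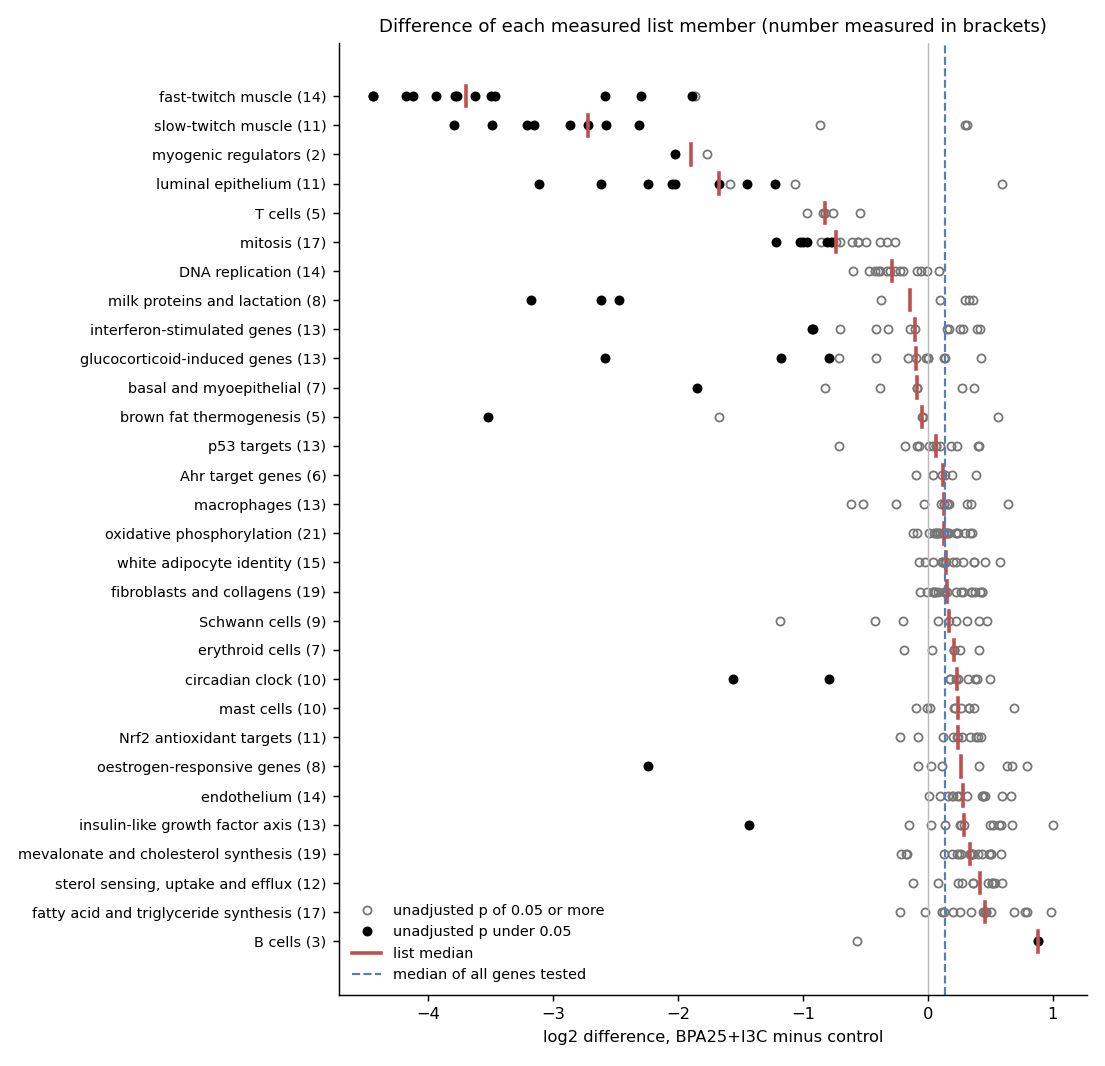
Each point is the log2 difference (BPA25+I3C minus control, x axis) of 1 measured member of a gene list (y axis, number measured in brackets). Filled points have an unadjusted p under 0.05, red bars are list medians and the dashed line is the median of all genes tested, 0.14. The fast-twitch, slow-twitch and luminal medians lie at -3.69, -2.72 and -1.67, and 14 of 14 endothelial members lie above 0, beside 70.6% of all genes.

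Luminal epithelial genes were lower in BPA25+I3C: 10 of 11 measured members had a negative difference, 8 of them at an unadjusted p under 0.05, and the list median was -1.67 beside 0.14 for all genes. Of all genes tested, 29.4% were negative and 1.21% were lower at that threshold. Without BPA25+I3C replicate 4, 4 members were at an unadjusted p under 0.05 and the median was -1.20. None passed after adjustment. Krt7, a keratin of simple and ductal epithelium, stood at -2.46, -4.00, -1.75, -3.60 and -1.47 in BPA25+I3C replicates 1 to 5, and at 0.47, -1.24, 0.53, 0.15 and -0.12 in control replicates 1 to 5. The groups did not overlap, and 1 of 5 BPA25+I3C arrays was above background against 5 of 5 control arrays. The difference was -2.61 ± 0.58 (limma adjusted p = 0.345).

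Areg encodes amphiregulin, the epidermal growth factor receptor ligand through which oestrogen drives ductal growth. Its levels were -3.08, -3.39, -4.14, -4.19 and -2.42 in BPA25+I3C and -1.37, -1.33, -0.75, -1.61 and -0.95 in control. These groups did not overlap, and no BPA25+I3C array was well above background, so that Areg was at least 2.79-fold lower (measured difference -2.24 ± 0.56, limma adjusted p = 0.804). A bound of this kind sets the control mean against the higher of the measured value and the dimmest signal above background on each array, and it holds for the scanner's own background subtraction. Control arrays below background stay in that mean at their measured value, which concerns Csn3, Zbtb16 and Nr1d1. With normexp background correction and in the authors' deposited table, the difference of Areg was -0.56 and -1.20, smaller than the bound. The other 5 genes given a bound against control also had smaller differences than their bound there: -0.64 and -1.38 for Csn3, -1.33 and -2.08 for Tnni1, -1.13 and -2.0 for Csrp3, -0.71 and -1.17 for Zbtb16, and -0.17 and -0.40 for Nr1d1. With normexp Krt7 was -0.80, Myoz2 -0.57 and Sntb1 0.31, where the brighter Cited2 was 1.11. The normexp correction was run with an offset of 50 added to each signal, where the 75th percentile signal of the arrays was 73.3 to 375. Such an offset draws the differences of dim genes towards 0, so the normexp values cannot decide whether a bound holds.

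The abundant luminal keratin Krt18 split the BPA25+I3C arrays. It stood at 4.27, -1.30, 4.08, -4.26 and 4.28 in replicates 1 to 5, and at 5.02, 2.65, 5.16, 4.90 and 4.89 in control. Replicates 2 and 4 were far below the other 3, which lay between control replicate 2 and the other control arrays. Epcam, the epithelial adhesion molecule, showed the same 2 arrays lowest, at 0.79, -2.0, -0.48, -3.76 and -0.26 against 2.21, 0.29, 0.43, 0.95 and 0.53 in control. The differences were -3.11 ± 1.02 for Krt18 and -2.02 ± 0.63 for Epcam (limma adjusted p = 1.00 for both). The SD of Krt18 was 3.97 in BPA25+I3C and 1.05 in control, and its standard error uses the spread pooled over all 7 groups.

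Of the other members, the cell adhesion gene Cdh1 had a difference of -2.05 ± 0.74, and the tight-junction genes Cldn4 and Cldn7 differed by -1.44 ± 0.59 and -1.67 ± 0.76. Krt19 differed by -1.23 ± 0.54 and Krt8, the partner of Krt18, by -1.07 ± 0.58. Cldn3 was the exception at 0.59 ± 0.59. Spdef and Capn8, which belong to no list and were among the 12 lower genes of smallest p, also had groups that did not overlap. Spdef, an Ets factor of secretory epithelium, stood at -1.50, -4.47, -1.59, -4.20 and -1.08 against 0.52, -1.03, 0.15, -0.06 and -0.04 in control (-2.47 ± 0.63, limma adjusted p = 0.804). It followed the array pattern of Krt18.

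The luminal list mean lay lower on every BPA25+I3C array than on any control array. It was -0.56, -1.90, -0.81, -3.24 and -0.83 in replicates 1 to 5, against 0.79, -0.35, 0.22, 0.05 and 0.33 in control. Without replicate 4 the difference of the means went from -1.68 to -1.23, and without replicates 2 and 4 to -0.94. In the gland as a whole, fewer cells of a type and less RNA per cell cannot be told apart. The difference was negative on 4 of 4 scan days (-2.36 to -0.94) and on both slides shared by the groups (-0.86 and -3.57). With the array normexp-corrected in place of the scanner's own background subtraction, the luminal median was -0.56, with 10 of 11 members still negative.

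Milk protein genes were divided: 4 of 8 measured members were negative, beside 29.4% of all genes, and the list median was -0.14. The 3 members at an unadjusted p under 0.05 were all secreted products of the differentiated luminal cell. Of all genes, 1.21% were lower at this threshold. Csn3 stood at -2.63, -4.61, -4.10, -4.16 and -4.36 in BPA25+I3C and at -0.24, -1.31, -1.48, -2.11 and -1.64 in control. The groups did not overlap, and 0 BPA25+I3C arrays against 4 control arrays were well above background. Csn3 was at least 2.60-fold lower, with a measured difference of -2.62 ± 0.55 (limma adjusted p = 0.345).

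Lalba, the subunit of lactose synthase, was at -0.08, -4.79, 0.30, -4.30 and 0.95 in BPA25+I3C and at 2.44, -0.19, 2.16, 1.66 and 1.87 in control. Csn1s1 was at 0.36, -1.61, -0.07, -4.49 and 1.17 against 2.09, -0.15, 1.63, 1.85 and 2.30. In both, BPA25+I3C replicates 2 and 4 were the lowest arrays, as for Krt18, and the groups overlapped because control replicate 2 was low. The differences were -3.17 ± 0.89 and -2.47 ± 0.85 (limma adjusted p = 1.00 for both).

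Csn2, whose promoter carries the same motif as that of Csn1s1, did not follow them. It stood at -0.66, -0.17, -1.09, -1.40 and -0.65 in BPA25+I3C and at -0.37, -1.83, -0.75, -1.61 and -0.89 in control, which overlapped throughout (0.29 ± 0.49). Glycam1 differed by 0.09 ± 1.62, the prolactin receptor Prlr by -0.38 ± 0.43 and Stat5a by 0.36 ± 0.47. The milk list mean differed by -0.94 over all arrays and by -0.21 without BPA25+I3C replicates 2 and 4.

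Basal and myoepithelial genes had a list median of -0.09 (-0.26 without slide 3). Of 7 members, 5 were negative and 1 was at an unadjusted p under 0.05, beside 29.4% and 1.21% of all genes. That member was Lgals7, a galectin of stratified epithelium, at 2.75, 1.48, 1.43, -4.26 and 1.03 in BPA25+I3C and 3.19, 1.45, 2.42, 2.31 and 2.29 in control (-1.85 ± 0.86). Replicate 4 was the low array here too. Krt14 differed by -0.83 ± 0.76 and Krt5 by -0.38 ± 0.60, both within the spread between arrays.

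**Figure D2:**
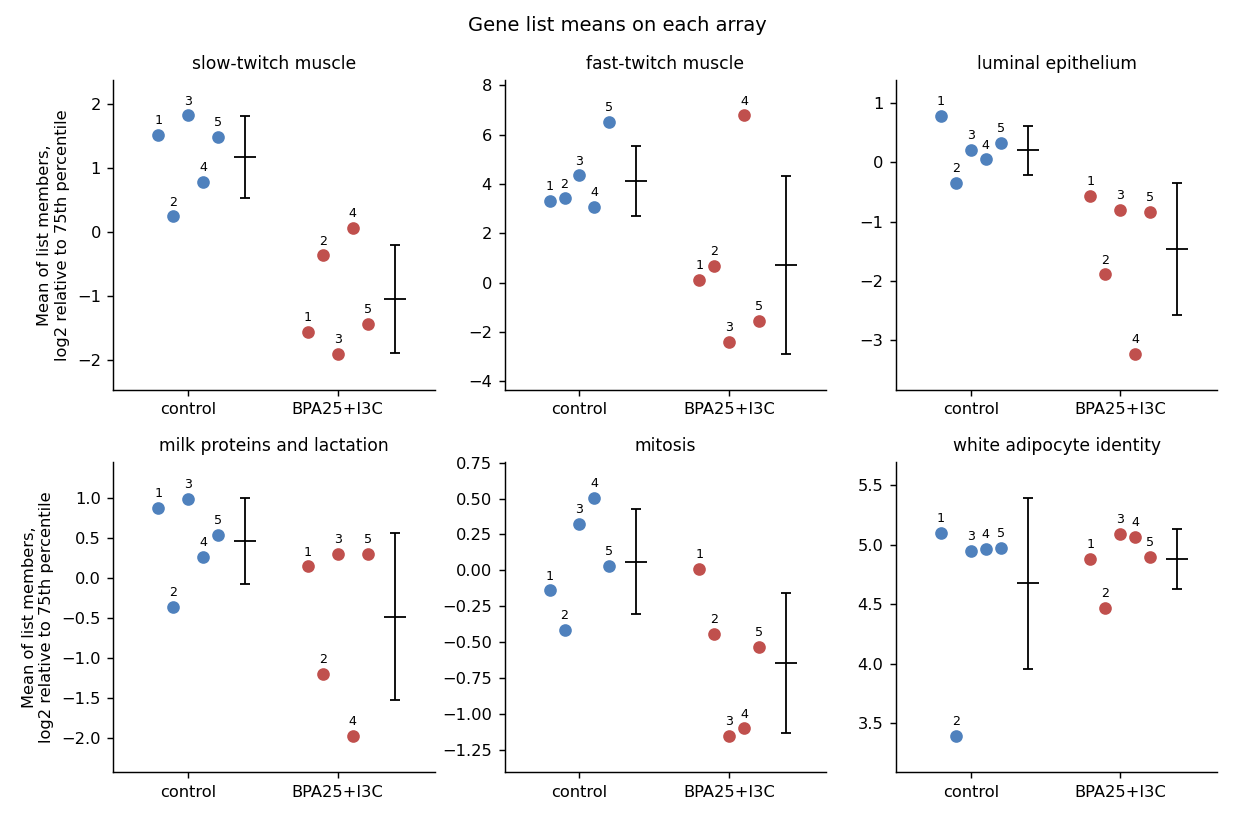
The y axis is the mean log2 level of a gene list on each array, centred on the array's 75th percentile, and numbers are replicate numbers. Bars are group means with SD of 5 arrays. The slow-twitch and luminal means of all 5 BPA25+I3C arrays lie below all control arrays, and BPA25+I3C replicate 4 has the highest fast-twitch mean (6.78) and the lowest luminal mean (-3.24).

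Slow-twitch muscle genes were lower in BPA25+I3C, with 9 of 11 measured members negative, 8 of them at an unadjusted p under 0.05, and a list median of -2.72 (-1.13 with normexp and -1.70 in the authors' deposited table). Beside these counts, 29.4% of all genes were negative and 1.21% were lower at that threshold. Tnni1, the slow skeletal troponin I that holds the thin filament inactive without calcium, stood at -4.52, -2.65, -4.14, -2.44 and -4.66 in BPA25+I3C. In control it stood at 1.01, -1.0, 0.96, -0.59 and 0.14, well above background on 5 of 5 arrays against 0 of 5. It was at least 6.37-fold lower, with a measured difference of -3.79 ± 0.83 (limma adjusted p = 0.345), and by less than this bound under the other background corrections given for Areg.

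Myoz2 stood at -4.87, -2.28, -4.65, -4.40 and -5.05 in BPA25+I3C and at -1.20, -0.76, -1.22, -2.29 and -1.48 in control. The groups overlapped by 1 pair of arrays, BPA25+I3C replicate 2 and control replicate 4. BPA25+I3C replicate 2 was also the only array of its group above background for Myoz2 (-2.86 ± 0.64, limma adjusted p = 0.345). Myoglobin (Mb), the oxygen store of oxidative fibres, was above background on all 10 arrays. Its levels were -0.08, 0.54, -0.67, 1.36 and -0.61 against 3.22, 1.14, 3.54, 2.12 and 3.40, with 1 overlap at BPA25+I3C replicate 4 (-2.58 ± 0.67, limma adjusted p = 0.804).

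Csrp3, a Z-disc protein of slow and cardiac muscle, was at -3.34, -2.10, -3.75, -1.67 and -4.32 against 0.53, -1.54, 1.77, 0.04 and 0.05 in control. No BPA25+I3C array was well above background, the groups did not overlap, and Csrp3 was at least 5.56-fold lower (measured -3.21 ± 0.89, limma adjusted p = 1.00). The slow myosin heavy chain Myh7 differed by -3.49 ± 1.22, the light chains Myl2 and Myl3 by -2.72 ± 0.90 and -3.15 ± 1.18, and the troponin T gene Tnnt1 by -2.31 ± 0.76. Atp2a2 and Tpm3, whose products are also made outside muscle, differed by 0.31 ± 0.44 and 0.29 ± 0.68.

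Fast-twitch genes had larger differences and a far larger spread. All 14 measured members were negative, 13 at an unadjusted p under 0.05, with a median of -3.69. The shares of all genes were 29.4% negative and 1.21% lower at that threshold. With slide as a block the median was -2.99, with 4 members at an unadjusted p under 0.05. Acta1, skeletal alpha-actin, stood at -0.75, -0.18, -3.42, 7.45 and -3.11 in BPA25+I3C and at 3.74, 3.87, 4.42, 3.17 and 7.0 in control. BPA25+I3C replicate 4 was the highest of the 10 arrays, and the other 4 lay below every control array. The difference was -4.44 ± 1.51 (limma adjusted p = 1.00), and without replicate 4 it was -6.30, which passed.

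The fast calcium pump Atp2a1 (-2.90, -0.78, -3.71, 4.64 and -4.01 against 1.49, 1.79, 2.22, 0.64 and 4.58) had the same shape. Creatine kinase Ckm, at 1.06, 1.83, -4.66, 8.76 and -0.88 against 4.85, 5.07, 5.71, 4.37 and 8.29, did as well. The myogenic factors Myog and Myod1 stood at 1.88 and 1.67 in BPA25+I3C replicate 4 and at -2.45 or lower on its other 4 arrays. Without replicate 4, Atp2a1 (-5.00), the light chain Myl1 (-5.47) and Tnni1 (-4.10) passed as well as Acta1 (limma adjusted p from 0.0217 to 0.0362 over the 25 genes).

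The fast-twitch and slow-twitch lists parted on replicate 4. Its fast-twitch mean was 6.78, above all control arrays, and its slow-twitch mean was 0.06, below all of them. The slow-twitch mean was lower on 4 of 4 scan days (-3.21 to -0.61) and on slides 8 and 9 (-2.69 and -1.42). The fast-twitch mean was lower on 4 of 4 scan days (-6.11 to -2.75), lower on slide 8 (-5.47) and 0.27 higher on slide 9, which holds replicate 4. The amount of adjoining muscle in each dissected gland was not measured, and its part in these differences was not tested.

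Cox8b, a cytochrome oxidase subunit listed with brown fat and also made in muscle, was at -0.39, -0.04, -0.93, 6.20 and -1.26 against 3.95, 3.37, 4.49, 3.47 and 5.91 in control (-3.52 ± 1.04). As for the fast-twitch list mean, its highest arrays were BPA25+I3C replicate 4 and control replicate 5. Ucp1, the uncoupling protein that defines brown fat, was at -4.51, -1.88, -2.34, -3.20 and -2.76 against -3.90, 0.43, -0.70, -2.62 and 0.47, with overlapping groups (-1.67 ± 0.84). The brown fat list had a median of -0.05 over 5 members.

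**Figure D3:**
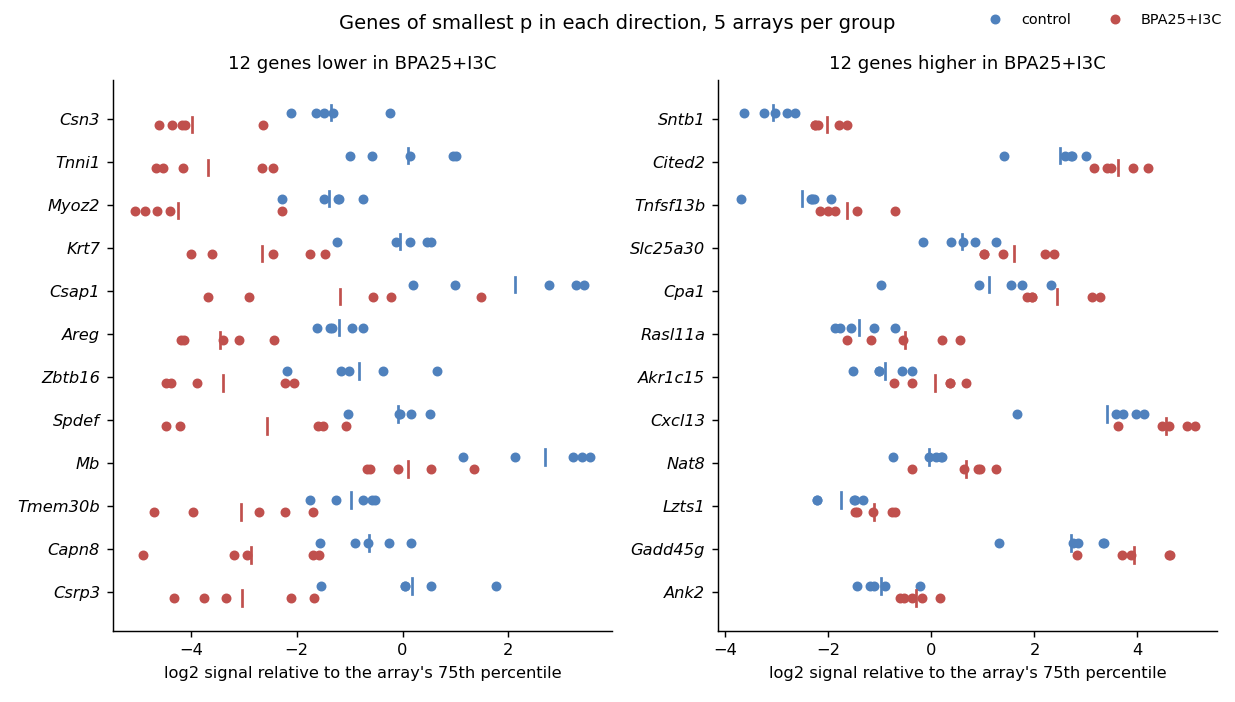
Points are arrays and vertical lines group means, with the log2 level relative to the array's 75th percentile on the x axis. The 12 genes of smallest p in each direction are ordered by p. Csn3, Tnni1, Krt7, Areg, Spdef, Capn8 and Csrp3 on the left, and Sntb1 and Cited2 on the right, have groups that do not overlap. Over all genes tested, this held for 0.173% on the low side and 0.0557% on the high side. The genes shown were chosen by p in these same arrays, so their separation adds no separate support.

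Genes higher in BPA25+I3C had smaller differences. Cited2, a transcriptional co-regulator that binds CBP and p300 and limits hypoxia-inducible factor, stood at 3.41, 3.48, 4.20, 3.16 and 3.90 in BPA25+I3C. Control arrays stood at 3.00, 1.42, 2.60, 2.70 and 2.73, all lower, with replicate 2 the lowest. The difference was 1.14 ± 0.35 (limma adjusted p = 1.00), and the other 2 probes of the gene gave 1.12 and 1.18.

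Sntb1, a syntrophin of the dystrophin complex, was at -1.80, -1.63, -2.27, -2.20 and -2.26 against -2.80, -3.64, -3.04, -3.26 and -2.64 (1.04 ± 0.30). It was above background on 5 BPA25+I3C and 2 control arrays. The stress gene Gadd45g (1.21 ± 0.56), the B cell chemokine Cxcl13 (1.15 ± 0.50) and the B cell survival factor Tnfsf13b (0.88 ± 0.34) overlapped between groups. So did Slc25a30, a mitochondrial carrier, at 1.02 ± 0.42 on its brightest probe and 1.95 on another. The limma adjusted p of each of these higher genes was 1.00.

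Cell division genes were lower with modest differences. All 17 measured mitosis genes were negative, 6 at an unadjusted p under 0.05, with a median of -0.73. Of all genes, 29.4% were negative and 1.21% were lower at that threshold. Without slide 3, where 38.7% of all genes lay above 0, 13 were at an unadjusted p under 0.05 and 16 were negative. With normexp the mitosis median was -0.31. The spindle kinesin Kif20a stood at 0.43, 0.82, -0.43, -0.79 and -0.01 in BPA25+I3C and at 0.48, 1.23, 1.18, 1.51 and 0.74 in control. The groups overlapped, and the difference was -1.02 ± 0.33. Cenpf, a kinetochore protein, differed by -1.21 ± 0.39, cyclin B1 (Ccnb1) by -0.96 ± 0.36 and the proliferation marker Mki67 by -0.99 ± 0.38 (limma adjusted p = 1.00 for each).

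The mitosis list mean was 0.01, -0.44, -1.15, -1.10 and -0.54 in BPA25+I3C, against -0.14, -0.42, 0.33, 0.51 and 0.03 in control. BPA25+I3C replicate 1 lay among the control arrays and the other 4 below them. Within scan days the difference was negative on 3 of 4 (-1.57 to 0.15). DNA replication genes had a median of -0.28, with 13 of 14 negative, beside 29.4% of all genes, and 0 at an unadjusted p under 0.05.

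Among glucocorticoid-induced genes, 3 of 13 were lower at an unadjusted p under 0.05 and the list median was -0.09, with 8 negative. Of all genes, 1.21% were lower at that threshold and 29.4% were negative. Without slide 3, where 38.7% of all genes lay above 0, the median was -0.42 with 12 negative. Without BPA25+I3C replicate 4, where 69.2% of all genes lay above 0, it was -0.26 with 11 negative. Zbtb16, a zinc-finger repressor that glucocorticoids induce strongly, stood at -4.38, -2.22, -3.88, -2.05 and -4.46 against 0.65, -1.17, -2.18, -0.36 and -1.02. The groups overlapped through control replicate 3, and 0 BPA25+I3C and 4 control arrays were well above background. It was at least 3.00-fold lower (measured -2.58 ± 0.65, limma adjusted p = 0.804), and its other probe gave -2.48.

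Fkbp5, the immunophilin of the glucocorticoid receptor complex, was at 1.98, 2.40, 1.19, 2.72 and 0.98 against 3.63, 2.79, 2.53, 3.49 and 2.68. The groups overlapped at 1 array, and it differed by -1.17 ± 0.37, with -0.95 to -0.81 on its other probes. Over the 7 groups the Fkbp5 mean was highest in control (3.02) and lowest in BPA25+I3C (1.85). The remaining groups lay between 2.21 (BPA25 without I3C) and 2.74 (BPA250+genistein). The glucocorticoid list median of BPA25 minus control was -0.46, and that of BPA25+I3C minus BPA25 was 0.26. Per1, also a clock gene, was at -2.58, -1.93, -2.23, -1.63 and -2.48 against -0.64, -1.55, -1.58, -1.50 and -1.63. Its groups did not overlap, but the nearest arrays of both round to -1.63 (-0.79 ± 0.38). The clock repressor Nr1d1 had a measured difference of -1.56 ± 0.67, with 0 BPA25+I3C and 3 control arrays above background, and entered through another group only. Its bound of 1.35-fold is not a strict minimum, because the control mean includes arrays below background, and its difference with normexp was smaller.

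Many of the genes most directly tied to both agents were too dim to test. Ahr, Arnt, Cyp1a1, Cyp1a2, Nqo1, Esr1, Esr2, Pgr and Gper1 were each above background on at most 2 arrays of either group and were not tested. Cyp1b1, an Ahr target measured on all 10 arrays, stood at -0.40, 0.77, -0.32, -0.61 and -0.37 against -0.33, 1.27, -0.84, -0.43 and -1.15 (0.11 ± 0.44). Replicate 2 was the highest array of both groups. Its promoter window holds GCGTG, the core that Ahr binds, at -81 and -20, and that motif was in 3 of 5 promoters of the Ahr list and in 25.9% of all promoters. Tiparp, a quickly induced Ahr target, differed by -0.09 ± 0.34. The Ahr list median was 0.12 over 6 members, the Nrf2 antioxidant median 0.24 over 11 and the oestrogen-responsive median 0.27 over 8, each near the 0.14 of all genes. Without slide 3 the Ahr, Nrf2 and oestrogen-responsive medians were -0.03, -0.06 and 0.06. The oestrogen-responsive list holds Areg, its 1 member at an unadjusted p under 0.05, whose levels are given with the luminal genes.

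No lipid synthesis gene had an unadjusted p under 0.05. The fatty acid list had 15 of 17 members above 0, beside 70.6% of all genes, and a median of 0.46, with Fasn, fatty acid synthase, at 7.72, 8.13, 8.23, 7.92 and 7.73 against 5.96, 5.33, 8.10, 8.04 and 7.37 (0.98 ± 0.83). BPA25+I3C arrays lay close together and control replicates 1 and 2 were low. Gpam, the first acyltransferase of triglyceride synthesis, differed by 0.80 ± 0.45. The median was 0.13 without slide 3, which holds control replicate 2, and -0.09 with slide as a block. The cholesterol synthesis median was 0.34 (16 of 19 above 0) and that of sterol sensing genes 0.42 (11 of 12). Without slide 3, where 38.7% of all genes lay above 0, they were 0.11 (13 of 19) and 0.04 (7 of 12), and with slide as a block 0.0040 (10 of 19) and 0.10 (10 of 12).

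Endothelial genes were all above 0, 14 of 14 with a median of 0.28, beside 70.6% of all genes above 0. None had an unadjusted p under 0.05, and the highest, the junction gene Cldn5, differed by 0.66 ± 0.44. The endothelial members above 0 were 11 without slide 3 (median 0.29), 11 with normexp (0.17) and 12 with slide as a block (0.22). White adipocyte genes had a median of 0.15 with 13 of 15 above 0, collagens 0.15 with 17 of 19 and oxidative phosphorylation subunits 0.13 with 19 of 21. These 3 medians turned negative without slide 3 (-0.09, -0.21 and -0.25). The white adipocyte means of the groups overlapped, at 4.47 to 5.09 in BPA25+I3C and 3.39 to 5.10 in control, where those of the slow-twitch and luminal lists did not.

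Interferon-stimulated genes had a median of -0.10 (-0.23 without slide 3), with Oas1a, a sensor of double-stranded RNA, at 0.53, 1.10, 1.18, 0.84 and 0.43 against 1.38, 1.66, 1.14, 2.47 and 2.02 (-0.92 ± 0.27, limma adjusted p = 1.00). T cell genes were negative for 5 of 5 members, beside 29.4% of all genes, with a median of -0.82 and 0 at an unadjusted p under 0.05. BPA25+I3C replicate 4 had the lowest T cell list mean (-2.19). Without that array the T cell median was -0.43, and the difference of the list means went from -0.78 to -0.36. Igfbp2, which binds insulin-like growth factors, was dim, above background on 1 control array and no BPA25+I3C array, and differed by -1.43 ± 0.57. Igfbp5, at 4.26, 4.38, 3.42 and 4.18 in replicates 1, 3, 4 and 5, stood above control by 1.01 ± 0.53, with the outlier-flagged spot of replicate 2 left out.

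BPA25+I3C was next set against the groups that share 1 of its agents. Against BPA25 without I3C, limma called 2 of 16151 genes (0.0124% called), both slow-muscle genes and both lower. At an unadjusted p under 0.05, 421 genes were higher (2.61% called) and 278 lower (1.72% called). Tnni1 was at 2.22, -0.66, 0.26, 1.49 and 1.35 on the BPA25 arrays, all above the BPA25+I3C range of -4.66 to -2.44. The difference was -4.62 ± 0.83 (limma adjusted p = 0.0335), or at least 11.3-fold lower with the scanner's own background subtraction, since no BPA25+I3C array was well above background. Against control, the bound of Tnni1 did not hold under the other background corrections, and its values against BPA25 there are not given here. Myoz2 was at 0.29, -0.84, -1.68, -0.65 and -0.80 with BPA25, above the range of -5.05 to -2.28 with BPA25+I3C (-3.51 ± 0.64, limma adjusted p = 0.0335).

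Both calls depend on single arrays. Without any 1 of BPA25+I3C replicates 1, 3 and 5 or BPA25 replicates 1, 3, 4 and 5, limma called 0 genes, and without BPA25 replicate 2 it called 1. Without BPA25+I3C replicate 4 it called 22, and 0 from the values of the authors' table or with normexp background correction.

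Against BPA25+genistein, which shares the BPA dose, and BPA250+I3C, which shares the chow, limma called 0 genes (0% called in each). The genes at an unadjusted p under 0.05 numbered 132 higher (0.817% called) and 146 lower (0.904% called) in the first and 181 higher (1.12% called) and 258 lower (1.6% called) in the second. These 3 comparisons share the BPA25+I3C arrays, so their values stand side by side only. Csn3 in BPA25+I3C differed by -1.88 from BPA25, by -2.47 from BPA25+genistein and by -0.53 from BPA250+I3C. Krt7 differed by -2.27, -1.59 and -1.52 in that order, and Cited2 by 1.16, 1.18 and 1.04. For Tnni1 the values were -4.62, -1.47 and -0.39.

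BPA25, BPA25+genistein and BPA250+I3C were also each set against the same control arrays. Tnni1 differed from control by 0.83 with BPA25, -2.31 with BPA25+genistein and -3.40 with BPA250+I3C, beside -3.79 with BPA25+I3C. The slow-twitch medians were 0.65, -2.31 and -2.53 in those groups, beside -2.72. The fast-twitch medians were -0.07, -4.54 and -5.19, beside -3.69, so the muscle medians were below 0 with genistein as well as with I3C. BPA250 without a diet agent also had lower means than control for Tnni1 (-2.73 against 0.10) and Acta1 (1.53 against 4.44). Its Myoz2 mean was -2.83 against -1.39. BPA250+genistein was lower than control too, with means of -2.73 for Tnni1, -3.13 for Myoz2 and -1.31 for Acta1. List medians against control were not computed for BPA250 or BPA250+genistein. With BPA25, BPA25+genistein and BPA250+I3C the luminal medians were -0.42, -0.61 and -1.09, beside -1.67. Cited2 differed from control by -0.02, -0.04 and 0.11 in those groups, beside 1.14, and no difference of a list between groups was tested.

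Over all 7 groups, the neighbours of BPA25+I3C in the order of means differed from gene to gene. Csn3 was lowest in BPA25+I3C (-3.97, SD 0.78) and next in BPA250+I3C (-3.45, SD 0.74), within their spread. Krt7 was lowest in BPA25+I3C (-2.66, SD 1.11), below BPA250+genistein (-1.35, SD 0.98) with overlapping arrays. Zbtb16 was at -3.40 (SD 1.18) in BPA25+I3C and -2.70 (SD 1.00) in BPA25, again within the spread. Cited2 was highest in BPA25+I3C at 3.63 (SD 0.42), and BPA250+genistein, at 3.30 (SD 0.51), overlapped it.

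**Figure D4:**
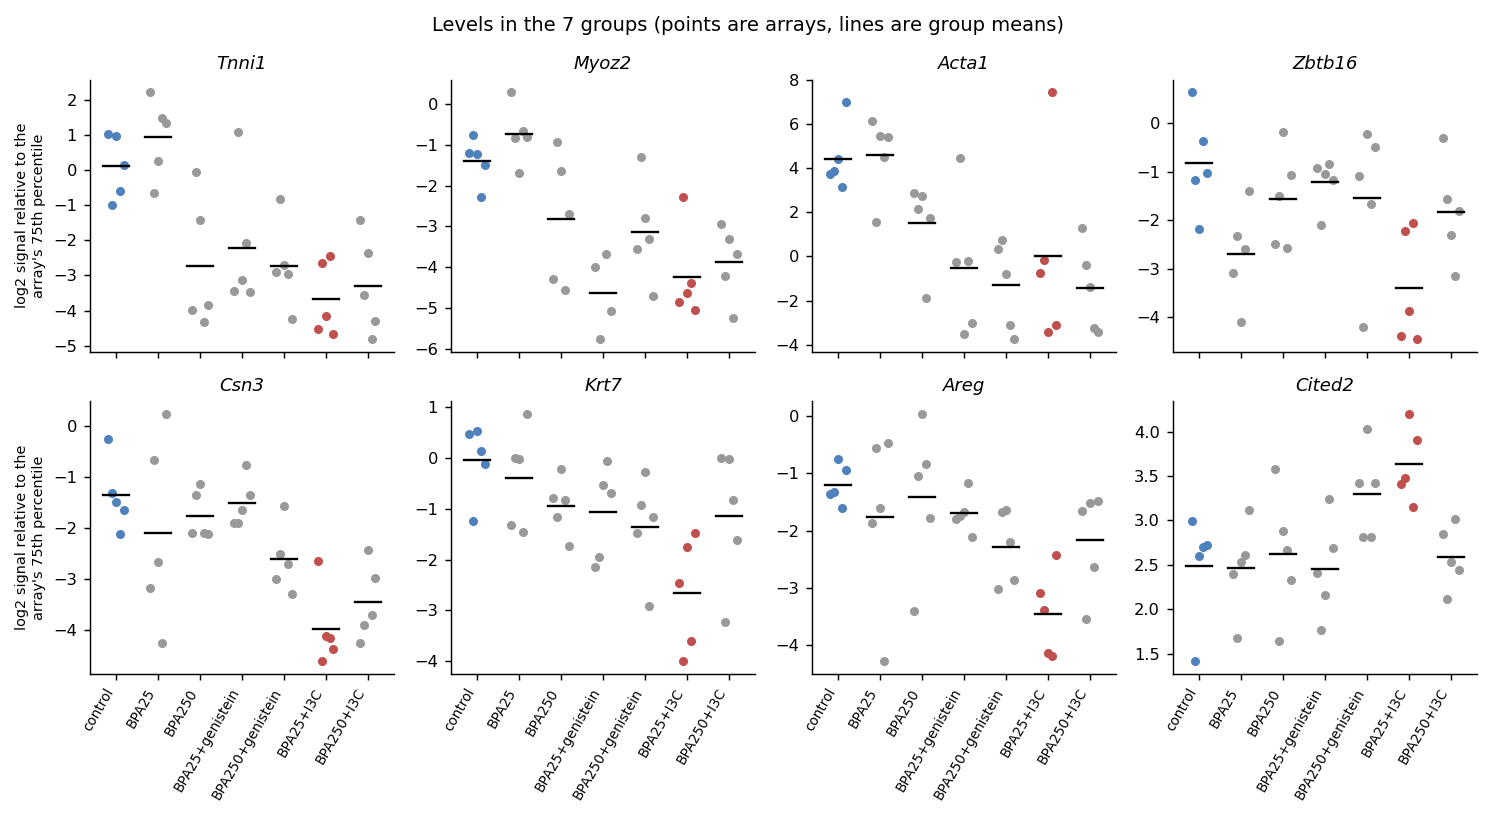
Each panel shows the log2 level of 1 gene relative to the array's 75th percentile (y axis) in the 7 groups (x axis), with points for arrays and lines for group means. BPA25+I3C is red and control blue. Tnni1 and Myoz2 are high in control and BPA25, while Csn3, Krt7 and Areg have their lowest group mean in BPA25+I3C.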

How the data were processed

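Total RNA of 1 mammary gland per array was labelled with 1 dye, per the labels' protocols. The deposited array files hold spot intensities from Agilent Feature Extraction 9.5.3.1, per the submitters' processing notes. Per the file headers, the processed signal is an intensity after background subtraction and detrending, and further deposited columns hold 0 or 1 flags of another kind for outlier spots and for signals well above background. The authors also deposited a table of log2 values, whose normalization is not given in the sources used here. Its column medians on the 10 arrays were 6.55 to 6.58, 194 values were missing, and its ranks correlated at 0.970 to 0.997 with the mean signal.

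Processed signals were taken to log2 and centred on each array's percentile of 0.75 over probe spots. Outlier-flagged spots were left out and the spots of a probe averaged. Probes entered when 4 or more of the 5 arrays of any group flagged them as well above background and at most 5 of the 35 arrays lacked a value. The 18991 probes kept gave 16151 genes, each by its brightest probe, and 9399 were named through RefSeq (GRCr8). Group means of all 7 groups were fitted with limma 3.58.1 (R 4.3.3, data.table, version 1.17.8), which leaves missing values out, and p-values were Benjamini-Hochberg adjusted over all genes at 0.05. The scripts were tested on simulated data. Named genes were the 12 of smallest p per direction with a difference of at least 0.58, the 3 of smallest p in each list and a set looked up for BPA and Ahr, and other list members were chosen after their values were seen. The members and lists were chosen with earlier results of these data known. Ahrr was not analysed here, and 1 gene that the rule names is not reported here. The number of arrays limits the precision. Alternatives covered the background correction (normexp with an offset of 50), normalization, probe filters, slide, scan day and replicate blocks, array weights and each array left out.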

Additional observations from a re-analysis of the deposited data

Results flagged for a closer look

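A group of 5 arrays was set apart when the gap of its highest or lowest array to the nearest other array was over 0.710 of the whole range of the group. Of 270 groups of values, 45 met this, and chance sets apart about 1 in 20.

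Control replicate 2, on slide 3 and with 93.4% of its probes above background, was the low array in 29 of them. The share of the range was 0.748 for Cited2, 0.778 for Cxcl13, 0.741 for Nat8, 0.808 for Lpl, 0.744 for Slc2a4, 0.729 for Csn1s1 and 0.864 for Cxcl12. It was 0.821 for Nfe2l2, 0.733 for Gsta3, 0.854 for Tpsab1, 0.800 for Cd14, 0.75 for Egfl7, 0.898 for Pdgfra and 0.778 for Col15a1. For Sdha it was 0.730, for Fas 0.878 and for Igf1 0.892. Among list means it was 0.907 for sterol sensing, 0.914 for white adipocytes, 0.861 for oestrogen-responsive genes, 0.901 for Ahr targets, 0.744 for Nrf2 targets and 0.779 for glucocorticoid-induced genes. It was 0.859 for mast cells, 0.873 for macrophages, 0.941 for collagens, 0.714 for oxidative phosphorylation, 0.865 for p53 targets and 0.715 for the insulin-like growth factor axis. Cited2 without this array differed by 0.87 in place of 1.14, and the groups still did not overlap.

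BPA25+I3C replicate 4 was the high array for Myl1 (0.723), Myod1 (0.828), Cox8b (0.836) and the mean of the myogenic regulators (0.853), and the low array for Mylip (0.954) and Lgals7 (0.755). BPA25+I3C replicate 2, on slide 4, was high for Myoz2 (0.764) and Cyp1b1 (0.795) and low for Fas (0.749). BPA25+I3C replicate 1 was high for Csn3 (0.745), at -2.63 where the others lay between -4.61 and -4.10, and replicate 3 was high for Mvd (0.729). Among control arrays, replicate 1 was high for Per1 (0.878) and Igfbp2 (0.838), replicate 3 was low for Tnfsf13b (0.771) and high for Itgam (0.719), and replicate 5 was high for Myog (0.725).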

How the results depend on the processing

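Against control, 0 genes passed in limma with all arrays and equal weights. With scan day as a block 1 passed, with array weights 67 (62 lower), without slide 3 2, without slides 3, 4 and 5 4, and with each array left out in turn 0 to 25. Against BPA25, where 2 passed, normexp background correction, the authors' table, outlier spots kept, no filter on dim probes, a filter that needs every array above background and slide as a fixed block each gave 0. The 75th percentile over probes detected on all arrays, quantile normalization and a fit of the 2 groups alone each gave 1. Scan day as a block gave 5, array weights 819, without slide 3 9, without slides 3, 4 and 5 12, and each array left out 0 to 22. Against BPA250+I3C, slide as a random block gave 41 and array weights 108 in place of 0.

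The 57 higher genes at an unadjusted p under 0.05 became 24 with normexp, 33 under the strict filter, 257 and 241 with slide as a fixed and a random block, 212 with scan day, 412 with array weights, 103 without slide 3, 137 without slides 3, 4 and 5 and 21 to 106 with each array left out. The 196 lower genes became 87 with normexp, 298 without a filter, 47 under the strict filter, 335 with slide as a random block, 661 with array weights, 307 without slide 3 and 125 to 239 with each array left out. Lower genes were 77.5% of these calls, and 52.8% with slide as a fixed block, 58.2% as a random block, 56.2% with scan day, 61.6% with array weights, 58.8% under the strict filter, 67.2% without slides 3, 4 and 5 and 84.2% without a filter.

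Same-numbered arrays of both groups did not all deviate together (correlations -0.05 to 0.77 over genes), so the numbers were not taken to pair the animals. The replicate block gave 0 genes passing against control, with 206 higher and 260 lower at an unadjusted p under 0.05 (55.8% lower), and 4 against BPA25.

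Of 2787 gene values under the alternatives, 2720 kept their direction and side of the threshold, 25 came past it and 42 changed sign (17 genes). With normexp Fcrla was 0.037. With the percentile over detected probes Vav3 was -0.0037, Ugt1a6 -0.064 and Cyp1b1 -0.088. With quantile normalization Cyp1b1 was -0.068. In the authors' table Cyp1b1 was -0.026. With slide as a fixed block Slc2a4 was -0.040, Col15a1 -0.0072 and Sdhc -0.12. With slide as a random block Sdhc was -0.011. With array weights Fabp4 was -0.0076, Gsta3 -0.059, Fcrla 0.43, S100b -0.089, Sdha -0.13, Sdhc -0.13 and Cycs -0.26. Without slide 3 Nfe2l2 was -0.012, Vav3 -0.057, Ugt1a6 -0.021, Tpsab1 -0.061, Pdgfra -0.017, Sdha -0.088, Sdhc -0.081 and Cycs -0.047. Without slides 3, 4 and 5 S100b was -0.040, Cycs -0.072 and Csn2 -0.047. With each array left out in turn the ranges that crossed 0 were -0.13 to 0.50 for Cyp1b1, -0.29 to 0.049 for Tiparp, -1.11 to 0.080 for Fcrla, -0.042 to 0.25 for Ugt1a6, -0.012 to 0.58 for Nfe2l2. They were -0.057 to 0.42 for Vav3, -0.061 to 0.46 for Tpsab1, -0.017 to 0.61 for Pdgfra, -0.088 to 0.52 for Sdha, -0.081 to 0.57 for Sdhc and -0.047 to 0.47 for Cycs.

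The median of all genes moved from 0.14 to -0.06 with the percentile over detected probes and without slide 3. The fast-twitch, luminal and mitosis medians were negative under all 27 alternatives in which lists were recomputed, and the slow-twitch median under 26. Under the strict filter, which drops dim genes such as Tnni1, Csn3 and Areg, the slow-twitch median was 0.29 and the luminal -0.32. The slow-twitch median there rests on Mb (-2.58), Tpm3 (0.29) and Atp2a2 (0.31) only, and the luminal on Krt19 (-1.23) and Cldn3 (0.59) only. The causes of these shifts were not tested.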

Other observations

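Other lists held isolated members away from 0. Egr2, a transcription factor of myelinating Schwann cells, stood at 0.89, -2.41, -0.55, -1.70 and -0.06 in BPA25+I3C and at 0.15, -0.66, 1.03, 0.74 and 0.82 in control (-1.18 ± 0.59), while the Schwann list median was 0.17 over 9 members. Cdkn1a, the cell cycle inhibitor of the p53 list, differed by -0.71 ± 0.47, and the p53 list median was 0.06 over 13. Without slide 3 the Schwann and p53 medians were 0.07 and -0.13. The glucose transporter Slc2a4 differed by 0.46 ± 0.47 and the chemokine Cxcl12 by 0.80 ± 0.48. Mast cell and macrophage medians were 0.24 and 0.13 over 10 and 13 members, with 0 members at an unadjusted p under 0.05, and without slide 3 they were -0.06 (3 of 10 above 0) and -0.20 (1 of 13). Of all genes, 38.7% lay above 0 without slide 3.

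Csrp3, Areg and Tnni1 were the 3 genes above background on all 5 control arrays and on 0 BPA25+I3C arrays, and 0 genes had the reverse. With at least 4 arrays in 1 group and at most 1 in the other, 80 of the 16151 genes tested were detected mainly in control and 27 mainly in BPA25+I3C. Over all probes, detection ran from 41.5% to 48.1% on the BPA25+I3C arrays and from 41.1% to 47.9% on the control arrays other than replicate 2, which had 68.6% and 93.4%, and the part of the replicate 2 arrays in these gene counts was not tested.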
